A study of Homo sapiens with 8 samples.

Results

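CTGF, CYR61, ANKRD1 and THBS1 are 4 known target genes of YAP, and 3 of them encode secreted proteins. They were chosen by gene symbol because they were higher in shELL cells at rest and several were also higher with EGF in these same arrays. They make up 4 of 18259 genes and 58 of 287329 probe sets on the array, a probe set being a few probes within 1 exon. HEK293 cells, a human embryonic kidney line, were compared with a stable derivative labelled shELL, made to deplete the RNA polymerase II elongation factor ELL. Control cells are described as wild type, so they carry no hairpin that the labels name, and the labels do not say whether the shELL line is 1 clone. Each line was left unstimulated or given EGF at 50 ng/mL for 1 h in serum-containing RPMI medium, so that 4 groups of 2 biological replicates filled 8 exon arrays.

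YAP and its relative TAZ are coactivators that bind TEAD transcription factors in the nucleus and are held back by the kinases of the Hippo pathway. Cell spreading, actin tension, serum lipids and growth factors are known to raise their activity. CTGF, now named CCN2, and CYR61, now named CCN1, are secreted matricellular proteins of the CCN family that bind integrins and heparan sulfate. CYR61 is also known as an immediate-early gene, one transcribed soon after growth factor without new protein synthesis. THBS1, thrombospondin, is a large secreted glycoprotein that binds CD47 and CD36 and can activate latent TGF-beta. ANKRD1 is not secreted; it is an ankyrin repeat protein of the nucleus and the sarcomere, best known from heart muscle.

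The promoter windows of 3 of the genes are shown because TEAD is the DNA-binding partner of YAP and these genes were higher together. CYR61 had no entry in the promoter set used, so its window was not searched. The 3 windows are RefSeq sequences of GRCh38.p14, from 250 bases before to 50 after the gene start, read on the gene's strand. The CTGF window is chr6:131951323-131951622 on the minus strand, that of ANKRD1 chr10:90921038-90921337 on the minus strand and that of THBS1 chr15:39580829-39581128 on the plus strand. Capitals mark the TEAD core motif GGAATG, searched on both strands.
CTGF: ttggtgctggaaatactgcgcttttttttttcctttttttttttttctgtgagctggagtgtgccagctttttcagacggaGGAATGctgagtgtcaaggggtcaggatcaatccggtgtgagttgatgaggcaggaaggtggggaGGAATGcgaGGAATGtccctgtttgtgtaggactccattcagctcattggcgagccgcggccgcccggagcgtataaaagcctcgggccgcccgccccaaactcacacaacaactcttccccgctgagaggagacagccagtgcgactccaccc
ANKRD1: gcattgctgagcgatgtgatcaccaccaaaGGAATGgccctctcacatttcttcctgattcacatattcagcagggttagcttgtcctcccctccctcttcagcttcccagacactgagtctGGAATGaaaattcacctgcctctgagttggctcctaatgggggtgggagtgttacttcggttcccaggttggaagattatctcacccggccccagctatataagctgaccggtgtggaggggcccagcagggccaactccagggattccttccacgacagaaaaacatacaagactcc
THBS1: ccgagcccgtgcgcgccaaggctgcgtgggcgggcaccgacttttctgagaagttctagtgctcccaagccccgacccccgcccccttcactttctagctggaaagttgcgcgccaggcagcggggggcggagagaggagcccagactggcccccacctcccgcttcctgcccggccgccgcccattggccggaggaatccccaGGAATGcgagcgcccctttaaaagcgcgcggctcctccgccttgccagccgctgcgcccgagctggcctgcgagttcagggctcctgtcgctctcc

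CTGF held the TEAD core at 3 places, beginning 169, 104 and 95 bases before the gene start. ANKRD1 held it at 2 places, 220 and 128 bases before the start, and THBS1 at 1 place, 46 bases before it. Of 35116 RefSeq windows of this length, 14% held at least 1 match, 1.37% at least 2 and 0.128% at least 3. Other motifs were searched the same way on both strands. ANKRD1 held a match to TGANTCA, a loose AP-1 pattern in which N is any base, 195 bases before the start (in 7.71% of all windows). The letters there are tgattca, with T at N. THBS1 held GCGTGGGCG, an EGR1 motif, 227 bases before the start (0.795%). CTGF held TATAAA, the TATA box, 32 bases before the start (11.5%). The CArG box, the motif of SRF, was in none of the 3 windows and in 1.29% of all, and none of the matches overlapped another. A match describes the letters of a window and not a bound site.

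Values below are log2 gene values after quantile normalization between arrays, each a median polish over the probe sets of a gene. The deposited array medians ran from 1.33 to 2.95, and replicate 1 of shELL with EGF stood apart as the dimmest array, with r = 0.784 against its replicate over 16145 genes. ELL itself was at 2.50 to 2.88 on the 4 control arrays and 2.63 to 3.86 on the 4 arrays labelled shELL, so it was not lower there, and which line is which was taken from the labels alone. Its control values lay at or near the olfactory receptor level of their arrays, where a loss could hardly show, and the 3.86 came from the dimmest array, whose own level was 3.89. Olfactory receptor genes, most of which are silent outside the nose, gave a background: the 95th percentile of their means was 2.62, and array by array it ran from 2.16 to 3.89. GAPDH, a glycolytic enzyme, divided the arrays: unstimulated control and the second replicate of each shELL group lay at 8.03 to 9.10, the other arrays at 6.61 to 7.48. Of the 3 immediate-early genes that check the stimulus, EGR1, a zinc finger factor, was at 3.80 to 4.14 on the 4 unstimulated arrays and 7.14 to 7.91 on the 4 with EGF. It was the 1 of 3 that passed limma's test in each line, and the only gene on the array to do so (0.00619% of all genes in each line). The replicates are called biological, with no word on separate cultures, and p-values measure only the spread between these arrays.

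CTGF (deposited positions on chromosome 6, 132269390 to 132272351, minus strand, build not given) was at 3.35 and 4.49 in unstimulated control. It was at 7.01 and 7.55 in control with EGF, at 6.27 and 6.48 in unstimulated shELL, and at 7.43 and 7.91 in shELL with EGF. The 3 upper groups lay apart from unstimulated control, and only the 2 groups with EGF overlapped. Unstimulated shELL thus stood between resting and EGF-treated control, with means of 3.92 ± 0.80, 6.38 ± 0.14 and 7.28 ± 0.38 (log2, SD, n = 2 each). The line difference was 2.46 without EGF, a 5.49-fold higher level, and 0.39 with EGF, or -0.30 with EGF on the values as deposited. The EGF difference was 3.36 in control and 1.29 in shELL, the latter 2.45-fold.

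The choice of these genes used the line difference at rest and the EGF differences, so those values are descriptions with no test. On the values as deposited the EGF difference of CTGF in shELL was -0.13, while the median of all genes in that comparison was -0.68, so relative to all genes CTGF was 0.56 higher. In shELL the EGF difference was 1.43 between the arrays of higher GAPDH and 1.15 between those of lower GAPDH. Within the arrays of higher GAPDH, the line difference at rest was 2.56. The part that GAPDH or array brightness has in these values was not tested.

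Each of the 10 probe sets of CTGF passed the filter on low values. Without EGF, 9 of the 10 had both shELL arrays above both control arrays, against 14.9% of all probe sets. The differences ran from 0.27 to 4.01 with a median of 2.78. The smallest, 0.27, belonged to the 1 probe set annotated to an Ensembl transcript alone, the fourth from the 5' end, while the other 9 carry the RefSeq transcript. With EGF in control, 9 of 10 were higher without overlap, against 21.4% of all probe sets, and in shELL 8 of 10, against 12.5%.

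**Figure D1:**
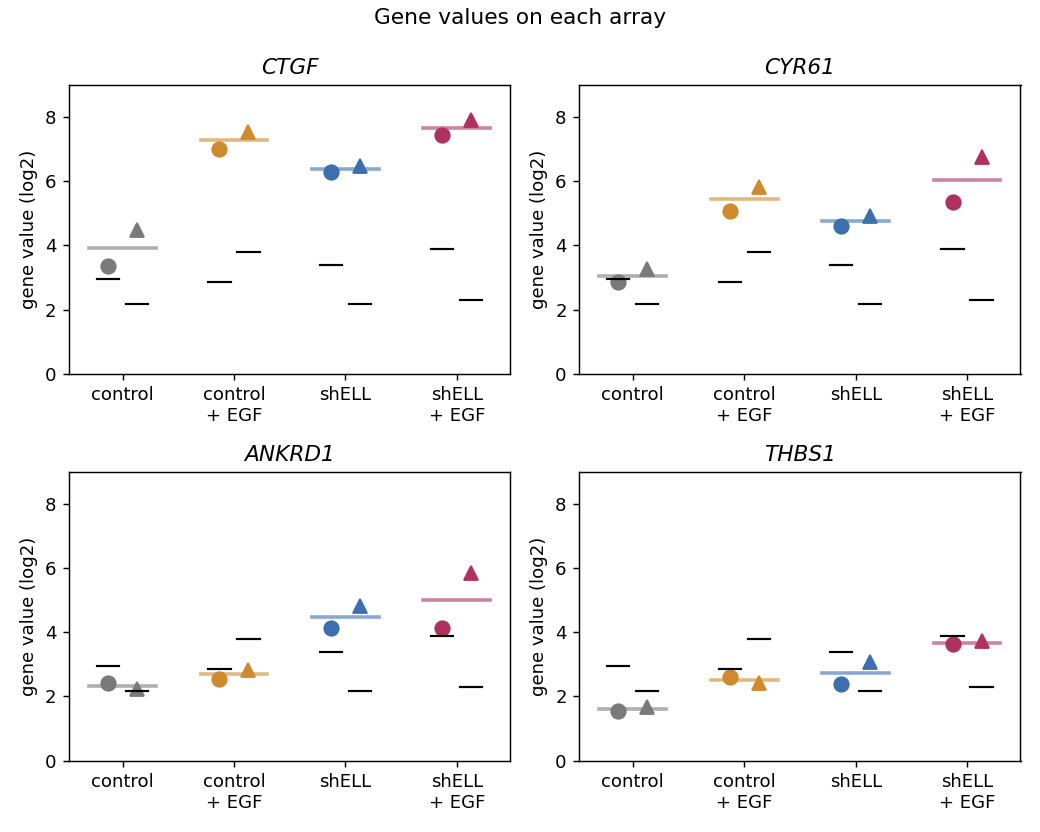
Log2 gene value of CTGF, CYR61, ANKRD1 and THBS1 on each array, by group on the x axis; circles are replicate 1, triangles replicate 2, coloured lines group means, and short black lines the 95th percentile of olfactory receptor genes on that array. ANKRD1 separates by line, from 2.24 to 2.83 in control and from 4.13 to 5.85 in shELL, while CTGF and CYR61 are lowest in unstimulated control.

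CYR61 (deposited positions on chromosome 1, 86046492 to 86049165, plus strand) kept the order of its relative CTGF. It was at 2.85 and 3.26 in unstimulated control and at 4.59 and 4.92 in unstimulated shELL. With EGF it was at 5.08 and 5.81 in control and at 5.36 and 6.75 in shELL. Unstimulated control lay below all other arrays, and again only the groups with EGF overlapped. Replicate 2 of shELL with EGF was the highest array, and replicate 1 lay inside the range of control with EGF. Replicate 1 of unstimulated control, at 2.85, lay below the olfactory receptor level of its array, 2.95. The line difference at rest was 1.70 (3.25-fold), the EGF difference 2.39 in control and 1.29 in shELL. Leaving out the second array of EGF-treated shELL made the last value 0.60, and leaving out the first made it 2.05.

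The deposited values gave CYR61 an EGF difference of 0.07 in shELL, or 0.75 relative to all genes. In shELL the EGF difference was 1.82 between the arrays of higher GAPDH and 0.77 between those of lower GAPDH. All 8 probe sets passed the filter, and 7 were higher in unstimulated shELL without overlap, against 14.9% of all probe sets, with differences from 0.30 to 2.07. Each of the 8 was higher without overlap in control with EGF, by 1.82 to 3.18, against 21.4% of all probe sets, and 5 in shELL with EGF, against 12.5%. CTGF and CYR61 gave r = 0.963 over the 8 arrays, which share 1 normalization.

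THBS1 (deposited positions on chromosome 15, 39873294 to 39888977, plus strand), the third secreted gene, was dim. It was at 1.54 and 1.67 in unstimulated control, 2.41 and 2.62 in control with EGF, 2.38 and 3.08 in unstimulated shELL, and 3.64 and 3.71 in shELL with EGF. The lowest and the highest group stood apart from all others, and the middle groups overlapped. All 4 control arrays lay below the olfactory receptor level of their own array, as did replicate 1 of both shELL groups, so a fold is not given. In log2 value it differed by 1.12 between the lines at rest, 0.91 with EGF in control and 0.95 with EGF in shELL.

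Of the 26 probe sets of THBS1, 24 passed the filter. Without EGF, 13 of 26 were higher in shELL without overlap and 0 lower, against 14.9% and 13.5% of all probe sets, and the differences ran from -0.16 to 3.05. High and low probe sets were mixed along the gene. The fifth, sixth and sixteenth from the 5' end had the largest differences, 3.05, 2.79 and 3.02. Another 5 probe sets, spread from the second place to the twentieth, lay below 0. Of the 26, 13 had a mean over the 8 arrays above the olfactory receptor probe-set level of 2.49. The sixteenth, at 2.33, did not. The means of the 5 below 0 were 1.88, 3.96, 1.13, 2.36 and 1.21, in order from the 5' end. With EGF 25 of the 26 lay above 0, and 11 were higher without overlap, against 14.1% of all probe sets. On replicate 2 of unstimulated shELL 18 of 26 were above the olfactory receptor level of the array, against 8 on replicate 1, so the replicates differed in how much of the gene was seen.

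**Figure D2:**
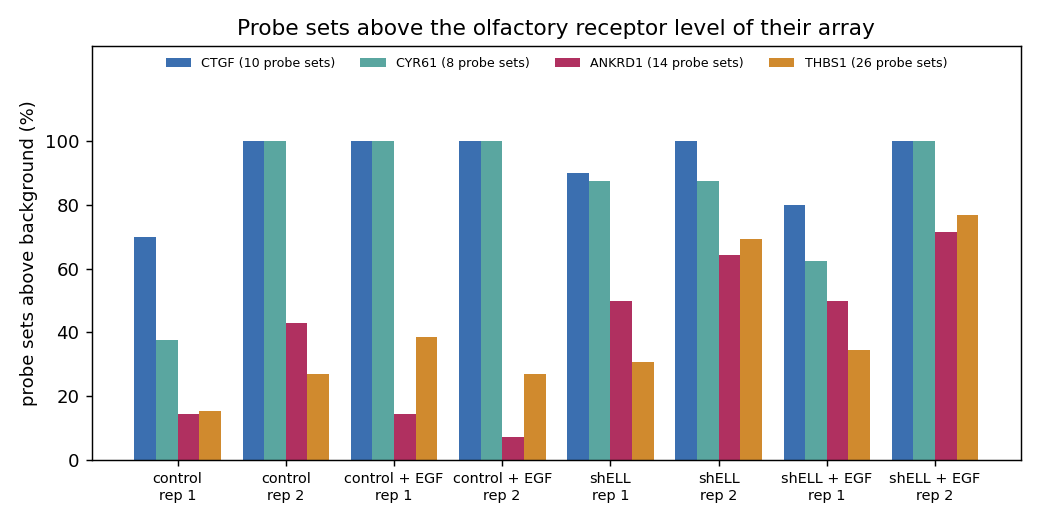
Percent of the probe sets of each gene that exceeded the olfactory receptor level (95th percentile of probe sets) of the same array (y axis), for the 8 arrays (x axis; rep is the replicate). ANKRD1 has 1 to 6 of 14 probe sets above it on control arrays and 7 to 10 on shELL arrays.

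ANKRD1 (deposited positions on chromosome 10, 92671994 to 92681031, minus strand) is the gene that is not secreted, and its arrays separated by line. It was at 2.43 and 2.24 in unstimulated control and at 2.55 and 2.83 in control with EGF. In unstimulated shELL it was at 4.14 and 4.83, and in shELL with EGF at 4.13 and 5.85. The 4 shELL arrays were all above the 4 control arrays, and the 2 shELL groups overlapped. The control values were near or below the olfactory receptor level of their array, so the control level can be read only as at or near background. Its EGF differences, 0.35 in control and 0.50 in shELL, changed sign in 3 and 5 of the other settings, to -0.53 in shELL on the values as deposited. Relative to all genes the deposited difference in shELL was 0.15. It was -0.81 without replicate 2 of shELL with EGF, -0.034 without replicate 1 of unstimulated shELL and 1.73 without replicate 1 of shELL with EGF. In shELL the EGF difference was 1.03 between the arrays of higher GAPDH and -0.018 between those of lower GAPDH.

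Of the 14 probe sets of ANKRD1, 10 had a mean over the 8 arrays above the olfactory receptor probe-set level of 2.49. The remaining 4, numbers 2, 3, 4 and 6 from the 5' end, did not. That mean includes the shELL arrays, where most of the probe sets were higher. Number 6 still differed by 1.61 between the lines at rest, without overlap. The 4 nearest the 5' end differed by -0.77 to 0.80 between the lines at rest, 3 of them at background (means 1.18, 1.54 and 1.64). The first of the 4 had a mean of 2.79. It exceeded the olfactory receptor probe-set level of its array only on replicate 1 of shELL with EGF, the dimmest array (5.26 against 4.23). A line difference at these 4 could therefore hardly be read. The other 10, further into the gene, differed by 0.71 to 4.05, with the fifth from the 5' end the largest. With EGF the same 4 differed by -0.28 to 0.51 and the other 10 by 0.61 to 3.94. All 14 passed the filter. In each state 9 were higher in shELL without overlap, against 14.9% of all probe sets without EGF and 14.1% with it. Without EGF 2 were lower without overlap, against 13.5% of all probe sets, and with EGF 0, against 15.1%. The exons these probe sets stand for were not named, because the build of the positions is not given.

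**Figure D3:**
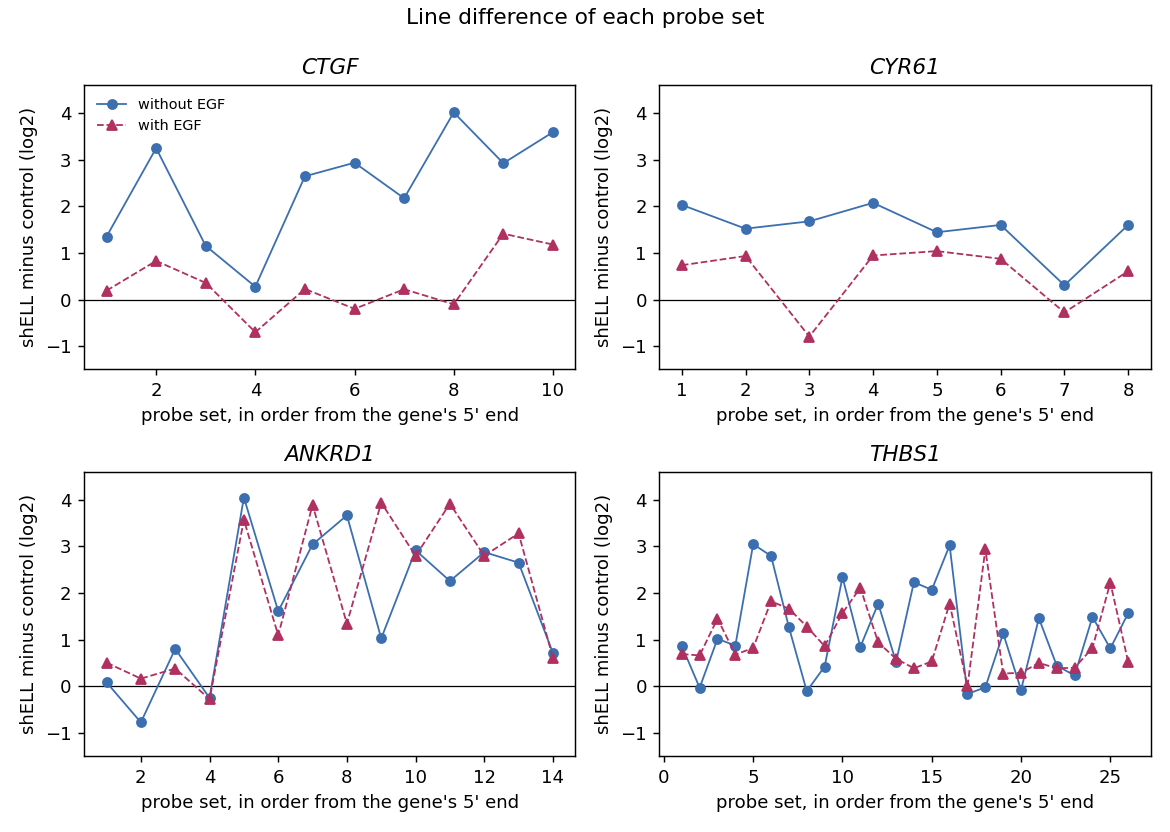
Difference between shELL and control (log2, y axis) of each probe set in order from the 5' end of the gene (x axis), without EGF (circles) and with EGF (triangles). The first 4 probe sets of ANKRD1 stay between -0.77 and 0.80, while most others lie above 1. Of these 4, numbers 2 to 4 are at background, and number 1 is above it only on replicate 1 of shELL with EGF. The CTGF differences have a median of 2.78 without EGF and 0.22 with it.

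The line difference in the arrays with EGF was the 1 comparison that the choice did not name, and it was tested with limma over all 16145 genes. Its arrays also entered the EGF differences that the choice looked at, so the test is not fully separate from it. None of the 4 genes passed (0 of 4, against 0% of all genes), and 2 of the 4, ANKRD1 and THBS1, had an unadjusted p under 0.05, against 3.17% of all genes. ANKRD1 was 2.30 higher in shELL (SE 0.52, 95% interval 1.13 to 3.48, limma adjusted p = 0.9998). Its control arrays with EGF, at 2.55 and 2.83, lay below the olfactory receptor levels of those arrays, 2.85 and 3.79, so this is a difference from background and its size is uncertain. THBS1 was 1.16 higher (SE 0.32, interval 0.44 to 1.88, limma adjusted p = 0.9998), likewise from control arrays below that level. Both shELL arrays were above both control arrays for these 2 genes, as they were for 9.62% of all genes.

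CTGF and CYR61 gave smaller values with EGF. CTGF was 0.39 higher (interval -0.56 to 1.33, -0.30 as deposited) and CYR61 0.61 higher (interval -0.46 to 1.68), each with a limma adjusted p of 0.9998 and with arrays that overlapped. Without replicate 1 of shELL with EGF, the dimmest array, the differences were 3.38 for ANKRD1, 1.23 for THBS1, 1.32 for CYR61 and 0.52 for CTGF. Without replicate 2 of that group ANKRD1 was 0.96 higher and CYR61 -0.11. Against the control arrays of like GAPDH level, replicate 1 of shELL with EGF was 1.44 higher for ANKRD1 and 1.12 for THBS1, and -0.09 for CYR61.

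At rest, all 4 genes were higher in shELL without overlap, a pattern that 15% of all genes had and that the choice used. With each array left out in turn, that difference was 1.85 to 3.07 for CTGF, 1.34 to 1.91 for CYR61, 1.62 to 2.54 for ANKRD1 and 0.70 to 1.14 for THBS1. Within the arrays of higher GAPDH it was 1.87 for CYR61, 2.49 for ANKRD1 and 1.47 for THBS1, with 1 shELL array against 2 control arrays. With EGF in control all 4 were higher without overlap, against 24.5% of all genes, and in shELL 3 of 4, against 10.4%, ANKRD1 being the exception. The EGF difference in shELL minus that in control was -2.07 for CTGF, -1.09 for CYR61, 0.15 for ANKRD1 and 0.04 for THBS1. These values are built from comparisons the choice used and were not tested. The first 2 kept their sign in the 13 other settings run, from -3.53 to -1.44 for CTGF and from -2.14 to -0.52 for CYR61, while THBS1 changed sign in 10 and ANKRD1 in 5.

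Other YAP targets were read from a published signature of 22 genes, of which 3 are described above. All 19 others were measured, and 10 had a mean above background. None passed with limma between the lines (0 of 19 without and with EGF, against 0% of all genes). An unadjusted p under 0.05 was found for 2 of 19 in each state, against 1.28% of all genes without EGF and 3.17% with it. Without EGF 7 were higher in shELL without overlap and 0 lower, against 15% and 13.4% of all genes. With EGF 4 were higher and 2 lower, against 9.62% and 14.5%. The list median was 0.17 without EGF, where that of all genes was 0.03, and 0.03 with EGF, where that of all genes was -0.04.

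Of these genes TGFB2, a secreted TGF-beta ligand, was at 2.52 and 2.17 in unstimulated control and 3.54 and 3.75 in unstimulated shELL. With EGF it was at 2.43 and 2.37 in control and 3.60 and 2.71 in shELL. MYOF, a membrane protein of the ferlin family, was at 1.71 and 2.54 in unstimulated control and 3.35 and 3.39 in unstimulated shELL. With EGF it was at 1.75 and 2.55 in control and 2.99 and 3.79 in shELL. Both genes thus had every shELL array above every control array, with control levels below the background of 2.62. On replicate 1 of shELL with EGF both also lay below the olfactory receptor level of that array, 3.89. MYOF was just below the level of the array on replicate 1 of unstimulated shELL (3.35 against 3.40). On replicate 2 of unstimulated control it was above that level (2.54 against 2.16). CRIM1, a membrane protein that binds growth factors, differed by 0.42 at rest, and LATS2, a Hippo kinase, by 0.28. With EGF, 0 of the 19 passed in control and 0 in shELL, against 0.00619% of all genes each. At an unadjusted p under 0.05 there were 1 in control and 0 in shELL, against 2.69% and 2.47% of all genes. Of the 19, 6 were higher and 0 lower without overlap in control with EGF, against 24.5% and 15.7% of all genes, and 1 and 3 in shELL, against 10.4% and 11.5%. Of the 14 of these genes that had a promoter window, 7 held the TEAD core, against 14% of all 35116 windows. Whether TEAD binds there was not tested.

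**Figure D4:**
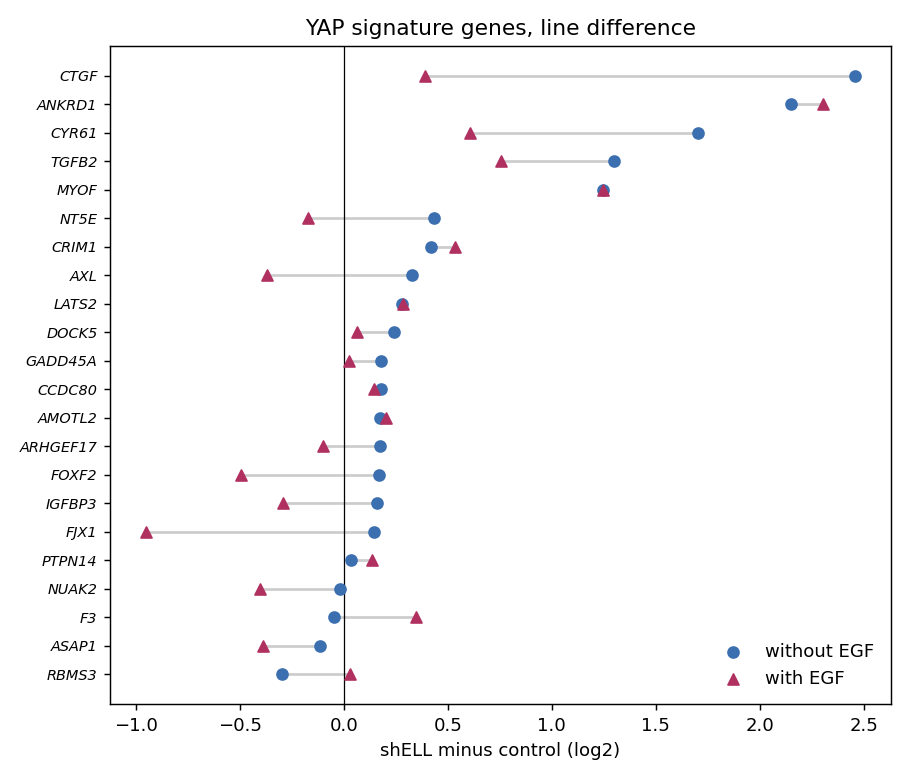
Difference between shELL and control (log2, x axis) for the 22 genes of the YAP signature (y axis), without EGF (circles) and with EGF (triangles), joined by a grey line for each gene. CTGF, ANKRD1 and CYR61 lead the order without EGF, and with EGF CTGF is at 0.39 (-0.30 on the values as deposited) and ANKRD1 at 2.30.

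The factors of the pathway were read as well. All 7 of YAP1, WWTR1 (which encodes TAZ), TEAD1 to TEAD4 and VGLL4 had a mean above background. None passed in a line or EGF comparison (limma, 0 of 7, with 0 at an unadjusted p under 0.05). Of all genes, limma called 0% in each line comparison and 0.00619% in each EGF comparison. The unadjusted shares were 1.28% without EGF and 3.17% with it between the lines, 2.69% with EGF in control and 2.47% in shELL. YAP1 was named here outside the rule as the factor of the pathway. It was at 3.26 and 3.09 in unstimulated control and 2.93 and 3.12 in unstimulated shELL. On replicate 1 of both shELL groups and replicate 2 of control with EGF it lay below the olfactory receptor level of the array. WWTR1 was at 3.59 and 3.21 in control and 3.79 and 3.91 in shELL, a difference of 0.45. VGLL4, with a mean of 2.64, lay below the olfactory receptor level of its own array on all 8 arrays. It differed by 0.34, TEAD4 by -0.29 and TEAD3 by -0.25.

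Receptors of the secreted proteins were read next. The 12 included integrin subunits, a syndecan, the thrombospondin receptors CD47 and CD36, and LRP receptors. In each of the 4 comparisons limma called 0 of 12, while 1 had an unadjusted p under 0.05 in each line comparison and 0 in each EGF comparison. Of all genes, limma called 0% in each line comparison and 0.00619% in each EGF comparison, and the unadjusted shares were 1.28% without EGF and 3.17% with it between the lines, 2.69% with EGF in control and 2.47% in shELL. ITGB3, the beta chain of the vitronectin receptor, was at 2.21 and 2.09 in unstimulated control and 2.74 and 3.84 in unstimulated shELL. With EGF it was at 2.01 and 2.26 in control and 3.16 and 3.02 in shELL. Every shELL array was thus above every control array, with a difference of 1.14 at rest and 0.95 with EGF, from control levels below background. On replicate 1 of both shELL groups ITGB3 also lay below the olfactory receptor level of the array, 3.40 without EGF and 3.89 with it. ITGAV, its alpha partner and itself a receptor chain for CCN proteins, differed by 0.57 and 0.35. ITGB1 differed by 0.47 at rest and ITGA6 by -0.44. Without EGF 4 of the 12 were higher and 1 lower without overlap, and with EGF 3 and 0, against 15% higher and 13.4% lower of all genes without EGF and 9.62% and 14.5% with it.

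Relatives of the 4 genes were mostly dim. Of the other CCN genes NOV, WISP1, WISP2 and WISP3, only NOV had a mean above background. NOV, now CCN3, was at 3.16 and 3.32 in unstimulated control and 3.01 and 2.79 in unstimulated shELL. THBS2, THBS3, THBS4 and COMP, the other thrombospondins, were all below background. Of ANKRD2 and ANKRD23, muscle relatives of ANKRD1, ANKRD2 was above it and differed by -0.0068 at rest. In the 4 comparisons limma called 0 of these 10 genes, against 0% of all genes between the lines and 0.00619% with EGF. At an unadjusted p under 0.05 there were also 0, against 1.28% of all genes between the lines without EGF and 3.17% with it. The shares were 2.69% with EGF in control and 2.47% in shELL.

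The genes whose values ran most like each member over the 8 arrays were ranked by Pearson r among 8059 genes above background, as a description of arrays that share groups and normalization. Nearest to CTGF were CBR3, a carbonyl reductase (r = 0.931), CDKN2B, an inhibitor of cyclin-dependent kinases (0.891), ADIPOR2, TGFB1I1 and GADD45B. CYR61 also had CBR3 first (r = 0.967), then SOCS3, CDKN2B, DUSP1, a phosphatase of MAP kinases (0.916), and PPP2R3C. ANKRD1 ran with RUNX1, a transcription factor (0.974), GLIPR1 (0.958), SGK1, a serum-inducible kinase (0.954), TPM4, a tropomyosin (0.953), and KRT17. THBS1 ran with CDKN2B (0.953), SENP2, HSPB8, REEP6 and TFPI2. Of the nearest genes of ANKRD1 none was among those of the other 3, while CDKN2B was shared by the secreted 3.

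Markers of the labelled cells and of others were read beside these values. Of 6 HEK293 markers 4 were above background: IRS4, an insulin receptor substrate, VIM, NEFL and LIN28B, while PAX2 and NEFM were below it. IRS4 was at 4.62 and 4.44 in unstimulated control and 2.52 and 3.12 in unstimulated shELL. With EGF it was at 4.52 and 3.60 in control and 2.47 and 2.95 in shELL, so every shELL array was below every control array. IRS4 thus separated by line, as ANKRD1 did, and its part in the ANKRD1 values was not tested. At rest IRS4 differed by -1.71, while NEFL, VIM and LIN28B differed the other way, by 0.18, 0.11 and 0.04. On replicate 1 of both shELL groups IRS4 lay below the olfactory receptor level of the array, 3.40 without EGF and 3.89 with it. COL1A1 was the 1 of 10 fibroblast markers above background. The mean of the fibroblast list on each array was 1.45 to 1.78 in unstimulated control, 1.97 to 2.03 in control with EGF, 1.72 to 1.98 in unstimulated shELL and 1.73 to 2.48 in shELL with EGF. It was thus higher with EGF in control, where CTGF and CYR61 were also higher. On every array this mean lay below the olfactory receptor gene level, and its highest value, 2.48, came from the dimmest array, whose level was 3.89. The part of the fibroblast list in the values of CTGF and CYR61 was not tested. Of the 4 endothelial markers measured 0 were above background, and of the 6 muscle markers ACTA2 and TNNT2, which differed by 0.22 and 0.05 at rest. In bulk RNA fewer cells of a type and less RNA per cell cannot be told apart.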

How the data were processed

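Per the submitters' processing notes, the authors made the deposited log2 probe-set values with Affymetrix Expression Console and RMA. Their versions, and the genome build behind the positions, are not given in the sources. Array medians differed, so the log2 values were quantile normalized between arrays. Probe sets with 1 gene symbol (280649 of 287329) were kept at or above the 25th percentile of means, and genes with at least 3 were summarised by median polish (at most 10 iterations), giving 16145 genes.

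Group means over 8 arrays were fitted with limma 3.58.1 in R 4.3.3 (input read by data.table, version 1.17.8), with 4 residual degrees of freedom, two-sided tests and Benjamini-Hochberg adjustment at 0.05. The number of arrays limits the precision. The procedure was tested on simulated data. Background was the 95th percentile of 42 olfactory receptor genes, or of 1225 olfactory receptor probe sets. A fold is given only where both group means exceed it. Figures used matplotlib 3.10.9 in Python 3.11.15.

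The 4 genes and the gene lists were chosen with earlier results of these data known. The naming rule took, from each list, up to 4 genes above background with the largest absolute line difference without EGF, and for each member the 5 genes of highest Pearson r. Alternatives covered normalization, filter, summary, arrays in the fit, array weights, a replicate block and each array left out.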

Additional observations from a re-analysis of the deposited data

How the results depend on the processing

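With EGF, the line difference of CTGF (0.39) was -0.30 on the values as deposited and -0.39 after array median centring, where the median of all genes was -0.17 and -0.25. It was -0.081 without replicate 1 of control with EGF and -0.0085 without replicate 2 of shELL with EGF. CYR61 (0.61) was -0.11 when that same array was left out, and -0.085 on the arrays of lower GAPDH alone, a setting chosen after seeing the data. The cause was not tested. Leaving out each array gave -0.081 to 0.70 for CTGF, -0.11 to 1.32 for CYR61, 0.96 to 3.38 for ANKRD1 and 0.68 to 1.23 for THBS1. Over all alternatives the lowest limma adjusted p was 0.204 for ANKRD1, 0.128 for THBS1, 0.781 for CYR61 and 0.855 for CTGF, and the highest was 1 for each. The 1 gene called with EGF in control became 0 as deposited and after centring, 2 with array weights, 2 with the replicate block (CTGF beside EGR1 both times, in a comparison that the choice of CTGF used) and 0 to 1 with arrays left out. The 1 gene called with EGF in shELL became 0 as deposited, after centring, with the filter at the 50th percentile, with the mean of probe sets, with only the arrays compared, with array weights, with the replicate block, and 0 to 0 with arrays left out. Same-numbered arrays deviated together in the 3 pairs of groups without control EGF (r = 0.37, 0.42 and 0.51) and oppositely in the 3 pairs with it (-0.16, -0.24 and -0.31), so the numbers were not taken as a pairing of all groups. With the replicate block ANKRD1 stayed at 2.30, and a crossed replicate block, chosen after seeing the data, called EGR1 alone with EGF in control and 1 gene in shELL.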

Other observations

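Targets of TGF-beta, the growth factor whose latent form thrombospondin can activate, were read as a list of 7 genes, of which 4 had a mean above background. Without EGF 4 of 7 were higher in shELL without overlap and 0 lower, against 15% and 13.4% of all genes, with a list median of 0.33 where that of all genes was 0.03. In each of the 4 comparisons limma called 0 of 7, against 0% of all genes between the lines and 0.00619% with EGF. At an unadjusted p under 0.05 there were 1 between the lines without EGF, against 1.28% of all genes, 1 with EGF in shELL, against 2.47%, and 0 in the other comparisons. PMEPA1, a membrane protein that dampens TGF-beta signalling, was at 2.13 and 2.40 in unstimulated control and 2.98 and 3.20 in unstimulated shELL. SMAD7, an inhibitory SMAD, differed by 0.56 in the same direction. BHLHE40, a repressor, differed by -0.08, with arrays that overlapped.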
